A study of Mus musculus with 2 samples.

Results

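The genes described here build the route by which newly made secretory proteins enter the endoplasmic reticulum (ER) and leave it again in coated vesicles. They were taken from the deposited gene counts by name: protein-coding genes of the Sec, Ssr, Spcs, Srp, Tmed and Cop series together with Arcn1, Sar1a, Sar1b, Ddost, Rpn1, Rpn2 and Dad1, given at least 10 reads over both libraries. The names picked out 70 genes and 69 had enough reads, which is 0.390% of the 17709 genes with that many reads. The gene left out was Sec1, with 2 reads in each library, and the member nearest to the minimum was Sec14l5, with 17 reads. RNA came from pancreatic islets of male C57BL/6 mice aged 10 to 12 weeks. One group carried a Brsk2 transgene for over-expression (the line is named Line20) and the other was wild type; both were given doxycycline, the drug that switches inducible transgenes, by drinking water over 4 days at an age of 8 to 10 weeks. Neither the promoter behind the transgene nor the number of mice in a library is stated in the labels. With a single library in each group there is no replicate check on any value, and no test across animals was made.

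A protein bound for secretion is caught on the ribosome by the signal recognition particle (SRP), threaded into the ER through the Sec61 channel, cut free of its signal peptide by signal peptidase and, at suitable sites, given a sugar tree by oligosaccharyltransferase. COPII-coated vesicles then carry it to the Golgi, and COPI-coated vesicles bring escaped residents and cargo receptors back. In islets this route carries insulin in beta cells and glucagon in alpha cells, which makes it one of the most heavily used machineries of the tissue. Brsk2, the over-expressed gene, encodes a protein kinase related to AMPK.

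Reads assigned to genes numbered 16832312 in the transgenic and 20389499 in the wild-type library. Brsk2 itself had 94.3 CPM in the transgenic library and 36.4 CPM in the wild-type library, where CPM are counts per 1000000 reads after scaling of the libraries. Ratios are of CPM, transgenic over wild type, and brackets hold a 95% interval for counting error alone. The libraries also differed in the markers of cell types. All 12 beta cell markers were detected and took 19.8% of transgenic and 25.3% of wild-type reads; 7 alpha cell markers took 3.16% and 1.94%, and 30 acinar markers, from the digestive-enzyme cells around the islets, took 6.93% and 1.51%. No gene of these 3 marker lists was at 0 in either library. Past 1.5-fold, 5 of 7 fibroblast and stellate markers, 4 of 8 plasma cell markers and 1 of 6 delta and gamma cell markers were higher in the transgenic library, and 3 of 9 ductal and 1 of 6 macrophage markers were too. Lower ones were 1 ductal marker and none of the fibroblast, plasma cell, delta and gamma, or macrophage markers, and no endothelial marker passed either way. At the same fold 8 of 12 beta cell markers were lower, and 4 of 7 alpha cell markers were higher. Of the 30 acinar markers 29 were higher and 1 was lower. These counts also required an interval that left out 1. Of all measured genes, 7.77% were higher by that rule and 5.89% lower. From such bulk RNA, fewer cells of a type and less RNA per cell cannot be told apart. The part of these marker differences in the ratios below was not tested.

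Most of the 69 genes lay close to a ratio of 1, and the coat genes stood lower than the ER entry genes, with median ratios of 0.846 and 0.996. Calls required a 1.5-fold difference together with an interval that left out 1. Under this rule 4 members (5.80%) were higher in the transgenic library, where 7.77% of all measured genes were, and 3 (4.35%) were lower, where 5.89% of all measured genes were. The higher ones were Tmed11, Tmed6, Sec61g and Sec14l5, and the lower ones Srp54a, Tmed5 and Srp54b. The coding sequences of Srp54a and Srp54b are identical, so their 2 calls may rest on divided reads. Of the 55 members with 1000 or more reads, 1 (1.82%) was called higher and 2 (3.64%) lower, where 2.48% and 4.61% of protein-coding genes of that abundance were. Abundant genes have narrow intervals, so a smaller fold can be told from counting error. At a second rule, a level at least 25% higher or a ratio of 0.8 or less, again with an interval that left out 1, the same 4 were higher and 14 members (20.3%) were lower. That rule called 13.2% of all measured genes higher and 12.4% lower; for the abundant protein-coding genes the shares were 7.85% and 16.1%, and of the 55 abundant members 11 were lower. Over the members, the median log2 ratio was -0.05, and -0.07 over the 55 abundant ones, beside 0.01 over all measured genes and -0.06 over abundant protein-coding genes. The set's median and its shares past 1.5-fold were thus near those of other abundant genes, while at the second rule 1 of the 55 abundant members (1.82%) was higher. None of the members was among the 108 genes that the authors' deposited table lists as different.

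**Figure D1:**
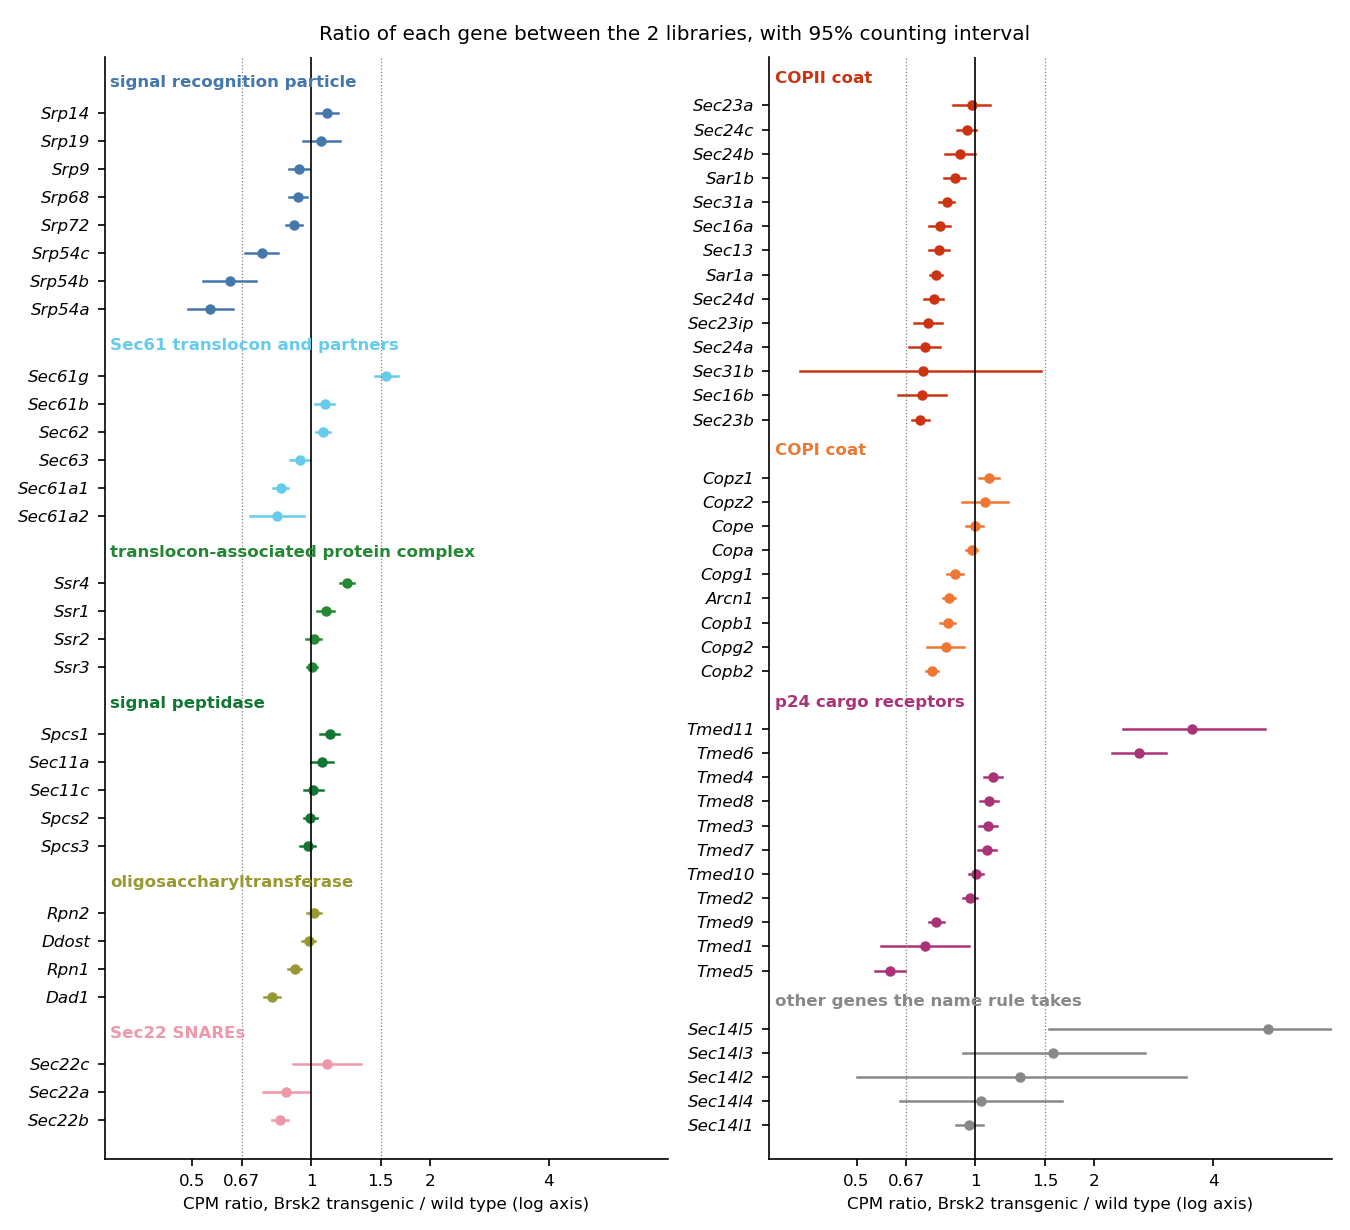
CPM ratio (Brsk2 transgenic over wild type, log axis) of each of the 69 genes, grouped by role; points are ratios, lines 95% counting intervals, and dotted lines mark 1.5-fold either way. All 14 COPII genes lie left of 1 (with library totals Sec23a does not), while Tmed6, Tmed11 and Sec61g lie right of 1.5. The interval of Sec14l5 runs past the right edge, to 29.9. Tmed8 is drawn with the p24 cargo receptors because of its name.

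The genes of the SRP, the particle that recognises signal peptides, mostly stood below 1 in the transgenic library. Of 8 genes, 6 had intervals below 1 and Srp14 alone had one above 1. Among these 6 were the 3 Srp54 copies, which are nearly identical and whose reads are summed below. Over all measured genes, intervals lay above 1 for 19.4% and below 1 for 22.1%; over abundant protein-coding genes these shares were 22.0% and 41.4%. Srp14, which with Srp9 forms the part that pauses the ribosome, had 108 CPM in the transgenic library and 98.7 CPM in the wild-type library, a ratio of 1.10 [1.03, 1.17]. Srp9 stood at 0.933 [0.879, 0.989], so the partners lay on opposite sides of 1. After centring of ratios by GC content and transcript length, Srp14 was at 1.005, outside its counting interval, and Srp9 at 0.887. The scaffold pair Srp68 and Srp72 had ratios of 0.928 and 0.904; Srp72, the SRP gene with the most reads, had 190 CPM in the transgenic and 210 CPM in the wild-type library. Srp19, which helps assemble the particle, was at 1.06 with an interval that held 1.

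Srp54, the GTPase subunit that binds the signal peptide itself, is encoded in the mouse by 3 tandem copies on the plus strand of chromosome 12. In the coordinates of the count table, which match GRCm38, they start at 55080262 (Srp54a), 55155104 (Srp54b) and 55230168 (Srp54c). Srp54a had 19.7 CPM in the transgenic and 35.5 CPM in the wild-type library (0.555 [0.486, 0.633]), and Srp54b had 15.2 and 24.5 CPM (0.622 [0.533, 0.724]). Srp54c had 40.5 CPM in the transgenic and 54.0 CPM in the wild-type library, a ratio of 0.750 [0.681, 0.826]. The coding sequences of Srp54a and Srp54b were 100% identical over 1512 bases and those of Srp54a and Srp54c 99.6%, so the division of reads among copies is uncertain. Their summed reads avoid that division: 1287 in the transgenic and 2294 in the wild-type library, a ratio of 0.662.

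At the Sec61 channel the small subunits stood above 1 and the pore subunits below it, except that Sec61b lay at 0.975 after centring of ratios by GC content and transcript length. Sec61g, the gamma subunit, a single-span protein that clamps the channel (chromosome 11, 16500530 to 16508484, minus strand), had 119 CPM in the transgenic library against 77.1 CPM in the wild-type library, a ratio of 1.55 [1.45, 1.65]. Sec61b, the beta subunit, had 157 against 145 CPM (1.08 [1.03, 1.14]). Sec61a1, the pore itself, had 196 CPM in the transgenic and 234 CPM in the wild-type library, a ratio of 0.837 [0.800, 0.875]. Its paralog Sec61a2 stood at 0.819 [0.699, 0.959], but it shares 909 exon bases with Nudt5 on the other strand, whose ratio was 0.845, and the labels do not say whether strand was kept. Sec62, the member of this group with the most reads, was at 1.07, and its partner Sec63, which brings the chaperone Hspa5 to the channel, at 0.937. Per kilobase of transcript, the level of Sec61b was 278 CPM in the transgenic and 257 CPM in the wild-type library, that of Sec61g 158 and 102, and that of Sec61a1 61.7 and 73.7.

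The translocon-associated protein complex (TRAP), which sits beside Sec61 and helps proteins with weak signal peptides such as preproinsulin, had ratios from 1.00 to 1.23 in its 4 genes. Ssr4, the delta subunit, had 292 CPM in the transgenic and 237 CPM in the wild-type library (1.23 [1.18, 1.28]), and Ssr1, the alpha subunit, had 195 and 179 CPM (1.09 [1.04, 1.14]). Ssr3, the gamma subunit and the most-read of all 69 members, had 425 CPM in the transgenic and 423 CPM in the wild-type library, and Ssr2 had 226 and 222 CPM; both intervals held 1. Summed over the 4 genes, TRAP took 0.115% of transgenic and 0.105% of wild-type reads. After centring of ratios by GC content and length, Ssr2 and Ssr3 lay below 1, at 0.957 and 0.918.

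Signal peptidase genes lay close to 1, from 0.980 to 1.11. Its most-read gene, Spcs2, had 304 CPM in the transgenic and 305 CPM in the wild-type library, a ratio of 0.996 [0.959, 1.03]. The 2 catalytic subunits, Sec11a and Sec11c, stood at 1.06 and 1.01, and Spcs3 at 0.980, all with intervals that held 1. Spcs1 was at 1.11 [1.05, 1.18]. It shares 252 exon bases with Glt8d1 on the other strand, whose ratio was 1.18. After centring of ratios by GC content and transcript length, Spcs1 was at 1.03, Sec11a at 0.975 and Sec11c at 0.926. In oligosaccharyltransferase, Rpn2 (1.02) and Ddost (0.985) had intervals that held 1, while Rpn1, with the most reads, was at 0.909 [0.875, 0.944]. Dad1, a small subunit, stood lowest, at 165 CPM in the transgenic and 207 CPM in the wild-type library, a ratio of 0.796 [0.759, 0.836]. In these 5 ER entry groups together, 7 of 27 genes (25.9%) had an interval above 1 and 11 (40.7%) below it. These shares were near those of abundant protein-coding genes, 22.0% and 41.4%. Over all measured genes 19.4% lay above 1 and 22.1% below it.

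The COPII coat stood lower in the transgenic library in nearly every gene. All 14 genes had ratios below 1, from 0.726 to 0.980, although with library totals Sec23a crossed to the other side of 1. Of these genes 11 had an interval below 1, 6 of these 11 also had ratios of 0.8 or less, and none was called 1.5-fold lower; the median log2 ratio was -0.32. Summed, they took 0.144% of transgenic reads (exact binomial interval 0.143 to 0.146) and 0.172% of wild-type reads (0.170 to 0.174). Among the 12 with 1000 or more reads, 83.3% had an interval below 1, beside 41.4% of protein-coding genes of that abundance. A ratio of 0.8 or less with such an interval was found for 5 of these 12 (41.7%), beside 16.1% of those protein-coding genes. Over all measured genes that share was 12.4%. The shares called 1.5-fold lower were 4.61% of abundant protein-coding genes and 5.89% of all measured genes.

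Ratios below 1 were found at each step of coat assembly. Sar1a, the GTPase that starts the coat and the most-read COPII gene, had 295 CPM in the transgenic and 372 CPM in the wild-type library (0.794 [0.766, 0.823]), and its paralog Sar1b stood at 0.885. The exit-site scaffolds Sec16a and Sec16b were at 0.812 [0.765, 0.862] and 0.732 [0.638, 0.840]. In the inner layer Sec23b, which stimulates Sar1 to hydrolyse GTP, was the lowest, with 148 CPM in the transgenic and 204 CPM in the wild-type library (0.726 [0.690, 0.763]). The cargo-binding Sec24 genes were at 0.744 (Sec24a), 0.912 (Sec24b), 0.951 (Sec24c) and 0.783 (Sec24d). The outer cage genes Sec13 and Sec31a were at 0.809 and 0.846, and Sec23ip, whose product binds Sec23, at 0.759. Sec31b had 15 reads in the transgenic and 24 in the wild-type library, and its interval held 1. In the same libraries acinar markers were 4.62-fold higher by their median. Beta cell markers had a median of 0.605, with ratios from 0.292 to 1.37, and 1 of the 12 had an interval above 1. The part of these marker differences in the COPII ratios was not tested.

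**Figure D2:**
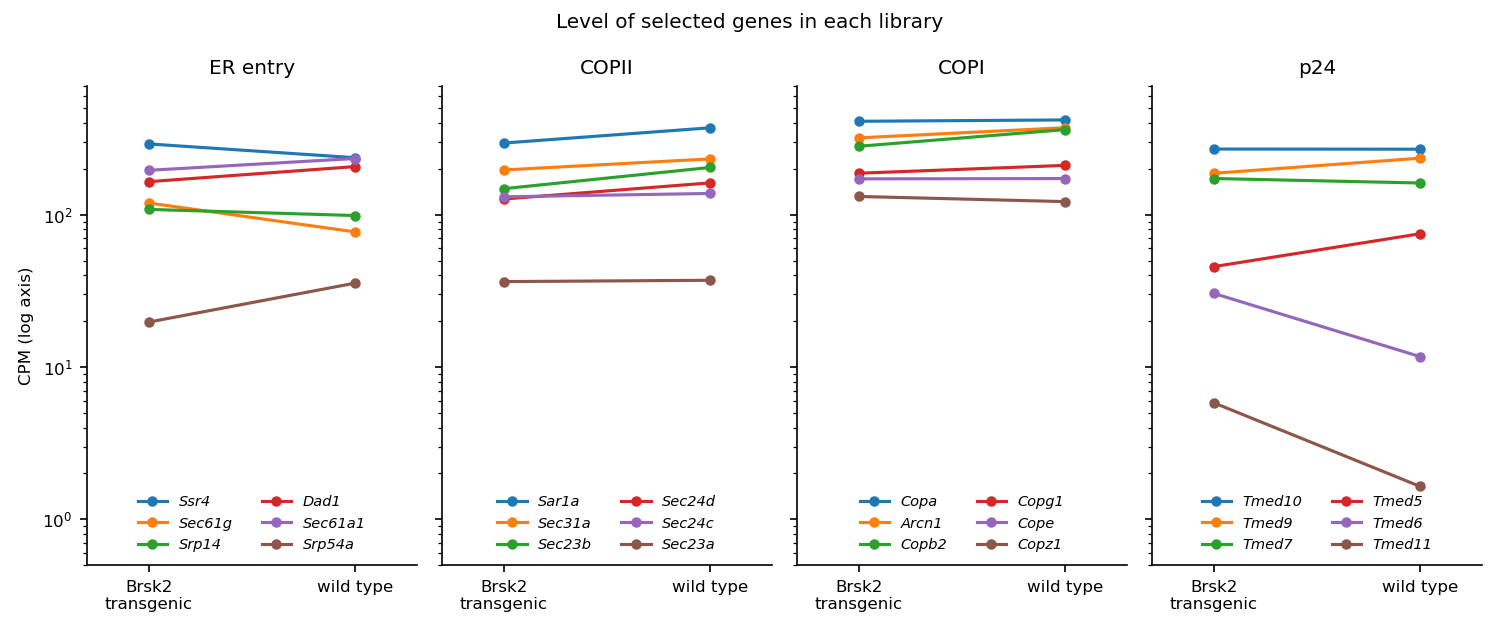
CPM (log axis) of 24 genes in the Brsk2 transgenic (left) and wild-type (right) library, in 4 panels by role; each line joins the 2 values of a gene. Sar1a, Sec31a, Sec23b and Sec24d stand lower in the transgenic library, the lines of Copa, Cope, Sec23a and Tmed10 are nearly flat, and Sec61g, Tmed6 and Tmed11 stand higher in the transgenic library.

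Within families of paralogs, the share of each copy does not depend on how the libraries are scaled. Sec23a took 19.7% of Sec23 reads in the transgenic library (exact interval 18.3 to 21.1) and 15.4% in the wild-type library (14.4 to 16.4), the rest being Sec23b. In the Sec24 family Sec24c took 36.6% (35.4 to 37.9) of transgenic and 32.8% (31.8 to 33.8) of wild-type reads, while Sec24d took 35.4% (34.2 to 36.6) and 38.5% (37.4 to 39.5). Per base of transcript length, Sec24d had the largest share of the family in both libraries, at 37.6% in the transgenic and 40.6% in the wild-type one, and Sec24c had 36.2% and 32.2%. By reads, Sec24a took 12.7% (11.8 to 13.5) in the transgenic and 14.5% (13.7 to 15.3) in the wild-type library. The Sar1b share was 25.5% (24.5 to 26.6) in the transgenic and 23.5% (22.7 to 24.4) in the wild-type library. Sec23, Sec24 and Sar1 were thus the families with intervals that did not overlap, although for Sar1 the limits nearly met. These intervals cover counting error alone, and such shares were not computed for other gene families as a background. For Sec24b the shares were 15.3% and 14.3%, and for Sec22c 5.69% and 4.41%, with intervals that overlapped. For Sec61a1, Sec11a, Sec16a, Sec31a, Copg1 and Copz1 the intervals of the 2 libraries overlapped, with shares of 92.4% and 92.3% for Sec61a1 and 84.3% and 83.9% for Copz1.

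**Figure D3:**
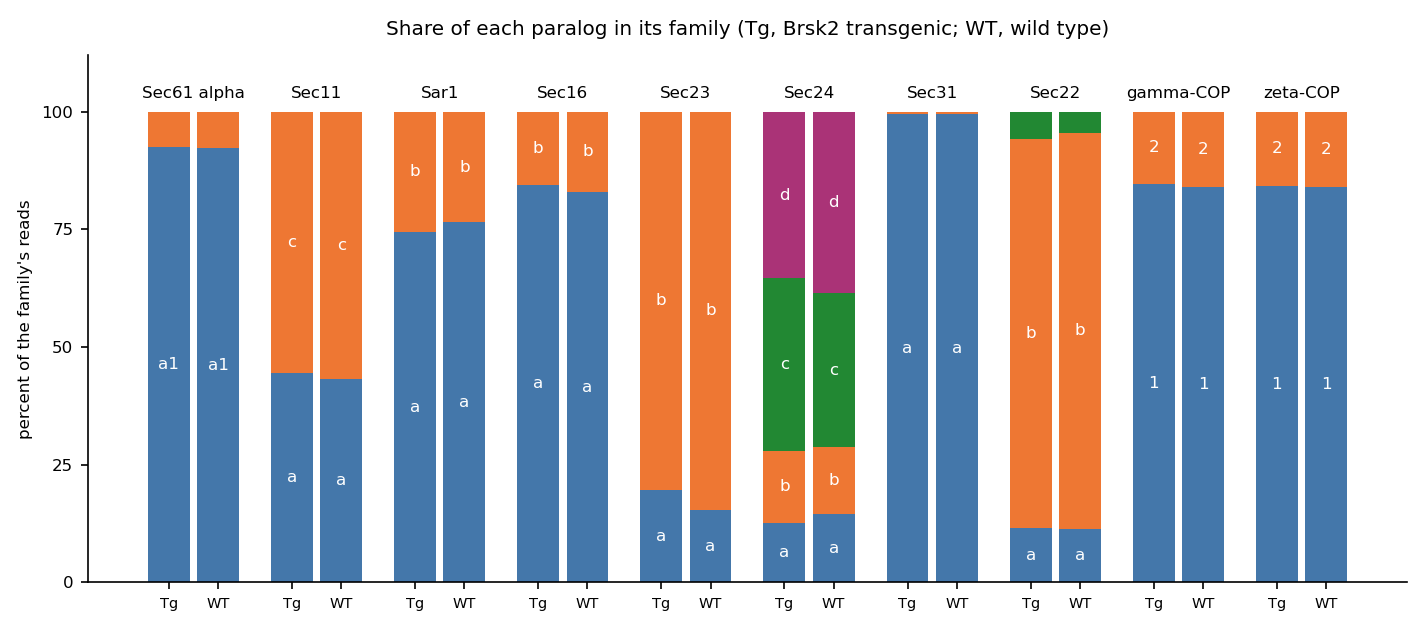
Share of each paralog in the reads of its family (percent) in the Brsk2 transgenic (Tg, left bar) and wild-type (WT, right bar) library for 10 families; letters or digits in the bars end the gene names, the unlabelled top segments being Sec61a2, Sec31b and Sec22c. The Sec23a segment is taller in the transgenic bar, at 19.7% against 15.4%, while the bars of Sec61 alpha, Sec31 and zeta-COP are nearly alike.

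Promoters were searched for motifs bound by the transcription factors of the unfolded protein response, which is known to raise genes of this route when the ER is loaded. RefSeq promoter windows (GRCm38.p6, 250 bases before to 50 after the start) were at hand for 58 of the 69 members. The core of the unfolded protein response element, TGACGTGG on either strand, was found in 5 of them (8.62%), beside 0.714% of 27025 genes with a window and 1.02% of 11203 measured protein-coding genes with one. All 5 belong to the vesicle coats. Their sequences are shown because they are the members with this match, from 130 bases before the start to 20 bases from it, 5′ to 3′ on the gene's strand, with the match in capitals.
Copb1 (chr7:114254661-114254810, minus strand): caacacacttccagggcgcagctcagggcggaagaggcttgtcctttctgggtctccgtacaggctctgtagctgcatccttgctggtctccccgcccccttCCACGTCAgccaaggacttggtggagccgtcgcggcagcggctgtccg
Copb2 (chr9:98563601-98563750, plus strand): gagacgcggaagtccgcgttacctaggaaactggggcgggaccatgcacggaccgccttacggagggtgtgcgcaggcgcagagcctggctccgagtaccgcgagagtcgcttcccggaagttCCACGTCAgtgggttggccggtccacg
Sec16b (chr1:157506666-157506815, plus strand): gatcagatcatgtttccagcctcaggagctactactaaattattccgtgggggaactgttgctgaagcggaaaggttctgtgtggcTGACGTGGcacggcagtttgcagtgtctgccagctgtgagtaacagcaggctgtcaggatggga
Sec23a (chr12:59011998-59012147, minus strand): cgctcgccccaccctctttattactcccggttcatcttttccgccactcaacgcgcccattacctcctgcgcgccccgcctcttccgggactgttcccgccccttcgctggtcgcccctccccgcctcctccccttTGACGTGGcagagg
Sec24d (chr3:123267366-123267515, plus strand): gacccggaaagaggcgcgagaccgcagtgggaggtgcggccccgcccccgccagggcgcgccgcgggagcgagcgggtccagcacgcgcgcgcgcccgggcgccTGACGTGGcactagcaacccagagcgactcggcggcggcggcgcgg
Sec16b has 2 windows, and only the 1 with the match is shown. The match lies from 28 to 21 bases before the start in Copb1, 26 to 19 before it in Sec24d and 44 to 37 before it in Sec16b. In Copb2 it spans the start, and in Sec23a it lies 7 to 14 bases from the start. Copb1 and Copb2 carry it on the opposite strand, written as CCACGTCA. Their ratios were 0.851 (Copb1), 0.777 (Copb2), 0.732 (Sec16b), 0.980 (Sec23a) and 0.783 (Sec24d). The full ER stress element is CCAAT, then 9 bases of any kind, then CCACG. ER stress element II is ATTGG, 1 base of any kind, then CCACG. Neither was in any of the 64 windows of the 58 members. The shares were 0.137% and 0.0444% of all genes with a window, and 0.161% and 0.0714% of measured protein-coding genes with one. The cyclic AMP element TGACGTCA was in 1 member, Cope (1.72%), beside 2.03% of all genes with a window and 3.52% of measured protein-coding genes with one. The motifs overlap in part, and a match describes letters, not a bound site.

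The COPI coat, which returns material from the Golgi to the ER, had a median ratio of 0.888, beside 0.802 for COPII, and its subunits differed. Of 9 genes 5 (55.6%) had an interval below 1 and 1 (11.1%) above it, and the median log2 ratio was -0.17. Over abundant protein-coding genes 41.4% had an interval below 1 and 22.0% above it, and over all measured genes 22.1% and 19.4%. Copa, the alpha subunit and the COPI gene with the most reads, had 411 CPM in the transgenic and 419 CPM in the wild-type library (0.980 [0.949, 1.01]); it shares 195 exon bases with Ncstn on the other strand, whose ratio was 1.29. Copb2, the beta′ subunit that forms the outer layer with Copa, had 281 and 362 CPM, a ratio of 0.777 [0.749, 0.806]. The other outer subunit, Cope, was at 0.995, with an interval that held 1. In the inner layer Copb1 (0.851), Arcn1 (0.857) and Copg1 (0.888) were below 1 and Copz1 was above it (1.08 [1.02, 1.15]). The minor copies Copg2 and Copz2 were at 0.841 and 1.06; Copg2 shares 912 exon bases with Mest on the other strand. The 23 genes of both coats had a median ratio of 0.846. With library totals in place of the scaling, their median log2 ratio was -0.20.

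The p24 proteins, encoded by Tmed genes other than Tmed8, are cargo receptors that shuttle between ER and Golgi in both coats. Tmed8 was grouped with them by its name alone. Ratios of the Tmed genes ran from 0.608 to 3.54. Of 11 genes 6 (54.5%), Tmed8 among them, had an interval above 1 and 3 (27.3%) below it. Over abundant protein-coding genes these shares were 22.0% and 41.4%. Tmed6 (chromosome 8, 107061476 to 107065644, minus strand) had 30.4 CPM in the transgenic library against 11.7 CPM in the wild-type library, which is 2.60 [2.22, 3.05] as a ratio; the reads were 518 and 235. Tmed11 (chromosome 5, 108777235 to 108795363, minus strand) had 5.80 against 1.64 CPM, which is 3.54 [2.36, 5.42] as a ratio, on 99 and 33 reads. At the other end Tmed5, on the same chromosome, had 45.6 against 75.0 CPM (0.608 [0.557, 0.664]); it shares 395 exon bases with Mtf2 on the other strand, whose ratio was 1.19. Per kilobase of transcript the level of Tmed6 was 34.9 CPM in the transgenic and 13.4 CPM in the wild-type library and that of Tmed11 7.61 and 2.15, while Tmed10 stood at 182 in both.

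The Tmed genes with most reads lay close to 1, apart from Tmed9. Tmed10, with the most reads, had 270 CPM in the transgenic and 269 CPM in the wild-type library; its pseudogene copy Tmed10-ps held 190 and 204 reads, so some of its reads could have been divided. Tmed2, its main partner, was at 0.970, and Tmed3, Tmed4, Tmed7 and Tmed8 lay between 1.07 and 1.11. Tmed9 had 187 CPM in the transgenic and 235 CPM in the wild-type library, a ratio of 0.796 [0.761, 0.833]. Tmed1, at 102 and 161 reads, stood at 0.747, but it shares 207 exon bases with the far more abundant Dnm2 on the other strand, whose ratio was 0.869. Summed over all 11 genes the ratio was 0.991. In the transgenic library 29 of 30 acinar markers were 1.5-fold higher, beside 7.77% of all measured genes. The other acinar marker, Bhlha15, was lower, at 0.632 [0.557, 0.716]. All 7 alpha cell markers exceeded wild type by 25% or more, beside 13.2% of all measured genes. The part of these marker differences in the Tmed ratios was not tested.

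The remaining members were few. Sec22b, a membrane-fusion SNARE of ER-Golgi traffic, had 167 CPM in the transgenic and 200.3 CPM in the wild-type library (0.835 [0.795, 0.876]), and its relatives Sec22a and Sec22c were at 0.863 and 1.10. The name rule also took 5 genes of the Sec14-like family, lipid-binding proteins outside ER entry and the coats. Sec14l1 carried nearly all their reads and stood at 0.965 [0.893, 1.04]. Sec14l5 had 14 reads in the transgenic and 3 in the wild-type library (5.50 [1.54, 29.9]), and Sec14l2, Sec14l3 and Sec14l4 had 10 to 41 reads per library with intervals that held 1.

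Genes that work beside the members were taken from lists that hold none of the members, and few of them passed 1.5-fold. That was also so of other genes: 7.77% of all measured genes were called 1.5-fold higher and 5.89% lower. For abundant protein-coding genes these shares were 2.48% and 4.61%. Of 9 measured genes of the SRP receptor and other ER targeting routes, none was 1.5-fold different; Srpr, the receptor subunit that docks SRP, had 0.802 [0.773, 0.831] and its partner Srprb 1.11 [0.997, 1.24]. Wrb, of the tail-anchor route, was highest at 1.44, and Get4 lowest at 0.764. Of 13 genes of the ER membrane complex and TRAM, which insert membrane proteins, Tram1l1 alone passed 1.5-fold, at 2.06 [1.41, 3.06] from 77 and 44 reads, while Tram1, the most-read, was at 1.02 and Mmgt1 lowest at 0.795. Of 8 other oligosaccharyltransferase subunits none passed 1.5-fold; the catalytic subunits Stt3a and Stt3b were at 0.879 and 0.866, and the small subunit Tmem258 was highest at 1.34.

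Over abundant protein-coding genes, 41.4% had an interval below 1, 22.0% had one above it, and 4.61% were called 1.5-fold lower. Over all measured genes these shares were 22.1%, 19.4% and 5.89%. Of 22 COPII regulators, cargo receptors and ER-Golgi SNAREs, none passed 1.5-fold, 9 had an interval below 1 and 1 above it. The most-read, Surf4, a cargo receptor, was at 0.857, the SNARE Gosr2 was lowest at 0.727 [0.691, 0.764] and the SNARE Bet1 highest at 1.26. Preb, which loads Sar1 with GTP, was at 0.821 [0.770, 0.875]. Of 13 COPI GTPases, their regulators and KDEL receptors, none passed 1.5-fold and 10 had an interval below 1, among them Arf1, with the most reads, at 0.918; Arfgap2 was lowest at 0.755. The 2 with an interval above 1 were Arf5, highest at 1.19 [1.12, 1.28], and Kdelr1 at 1.11. Of 26 ER stress sensors and chaperones 3 were 1.5-fold lower, Herpud1 (0.643), Edem1 (0.605) and Creb3l1 (0.583 [0.532, 0.639]), and 22 had an interval below 1. Their median log2 ratio was -0.25, with Hspa5, the main chaperone of the ER, at 0.742, and Canx highest at 1.03.

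Ratios of the members varied with transcript length in these libraries. Among the 55 members of 1000 or more reads, Spearman's rho between log2 ratio and length was -0.47, and among 5767 protein-coding genes of that abundance it was -0.16; the points share the same 2 libraries, and the values are descriptions. In members with transcripts under 1500 bases the median ratio was 1.02 (19 genes), in those of 1500 to 3000 bases 0.968 (16 genes), and in those of 3000 bases or more 0.854 (20 genes). Over all abundant protein-coding genes the same classes had medians of 1.03, 0.955 and 0.935. The short class holds Sec61g, Ssr4, Spcs1, Sec61b and Srp14, all above 1, but also Dad1 and Sar1b, below it. After centring of ratios in bins of GC content and length the median log2 ratio of the coats was -0.23, beside -0.24 without it, and that of the ER entry genes -0.06, beside -0.01 without it. Sec61g was then at 1.43 and no longer passed 1.5-fold.

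**Figure D4:**
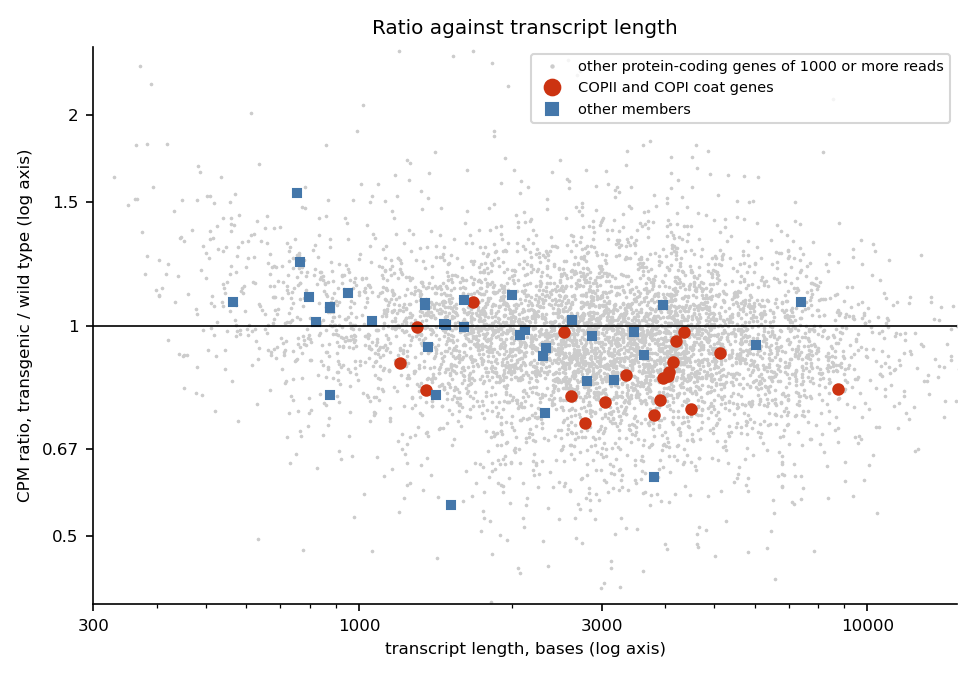
CPM ratio (Brsk2 transgenic over wild type, log axis) against transcript length in bases (log axis) for the members of 1000 or more reads, coat genes as red circles and others as blue squares, over other protein-coding genes of that abundance in grey; genes beyond the axes are not drawn. All coat genes but Copz1 lie below 1, at any length (with library totals Copa, Cope and Sec23a do not, nor does Copa after centring), and the members farthest above 1, Sec61g and Ssr4, have transcripts of 754 and 765 bases.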

How the data were processed

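RNA of isolated islets was made into TruSeq libraries, 1 for the transgenic and 1 for the wild-type group, taken from the genotype label. The authors deposited raw read counts per gene; no aligner, counter or genome build is named in the sources used here. The submitters' processing notes name DESeq2 1.10.1. Coordinates of 68 of the 69 members equal those of GENCODE M21 on GRCm38, which gave transcript lengths.

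A gene needed 10 reads or more, summed over the libraries. Counts were scaled by TMM factors (edgeR 4.0.16, R 4.3.3; 1.01 transgenic, 0.987 wild type); 1 read was worth 0.0586 CPM in the transgenic and 0.0497 CPM in the wild-type library. Ratios and shares have exact 95% Clopper-Pearson intervals (SciPy 1.17.1). Reads are not independent molecules, so intervals cover counting error alone. The labels give no strand, so overlapping genes cannot be told apart. The intervals and the 1.5-fold call were tested on simulated counts that held counting error alone. The other steps were not tested in this way.

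The members and all gene lists were chosen with earlier results of these data known. Named in full are, per role, the member with the most reads and those with the highest and lowest ratio given 100 reads, the called members and the paralogs; in each neighbouring list, the same 3 kinds of gene. Other neighbours named were chosen after their values were seen. Alternatives were DESeq2 1.42.0 size factors, library totals, TMM without hormone and acinar genes, centring in 10 bins each of GC content and length, other read minimums, and other denominators. Figures were drawn with matplotlib 3.10.9.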

Additional observations from a re-analysis of the deposited data

How the results depend on the processing

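No paired analysis was possible because each group has 1 library and no test was made. Under 3 other scalings, 2 other read minimums, ER and coat genes only, and centring by GC content and length, the 4 counts of called members stayed within 1.5 times their main value. Under centring the median log2 ratio was -0.037 for signal peptidase (0.02 without it) and -0.30 for the Sec22 genes (-0.21 without it), and 14 of 69 ratios left their counting interval, among them Sec61b, at 0.975 instead of 1.08; the cause was not tested. Sec61g (1.43) then no longer passed 1.5-fold. With library totals, Dad1, Sar1a, Sec24d and Tmed9 no longer had ratios of 0.8 or less, leaving 10 with such a ratio and an interval that left out 1. The COPII median ran from -0.34 (centred) to -0.28 (library totals). Without hormone and acinar reads, all members took 1.38% of transgenic and 1.40% of wild-type reads, since the denominator is smaller by construction. With only the 150 bases nearest the start, the element core was still in 5 members and the cyclic AMP element in 0. Per base of transcript length, 36 of 46 paralog shares left their counting interval. Depth limits the precision of genes with few reads: the interval ran from 0.360 to 1.46 for Sec31b (39 reads).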
